A study of Mus musculus with 3 samples.

Results

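The genes followed here encode factors that start and drive translation: the elongation factors Eef1a1, Eef1b2, Eef1g and Eef2, the initiation factors Eif4a1, Eif4a2, Eif4g1 and Eif4g2, the poly(A)-binding protein Pabpc1, and Eif4a-ps4, a pseudogene of the Eif4a family. They were chosen by name, with earlier results of these data known. Every ChIRP-seq region overlapping the span of a gene by at least 1 bp in the GENCODE M1 annotation of mm9 was counted. The 10 genes, of 37310 annotated, held 17 regions in the odd-pool list of 2112 (0.805%) and 3 in the even-pool list of 345 (0.870%). The odd regions fell in 8 of the 10 genes and the even regions in 3, while Eef1g and Eif4a1 held none in either pool.

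The study asked where PAM (PAM-1), a long noncoding RNA transcribed from a super-enhancer, sits on the chromatin of activated satellite cells (ASCs), the muscle stem cells of the mouse after they have left quiescence. Chromatin isolation by RNA purification (ChIRP-seq) captures an RNA with biotinylated antisense probes and sequences the DNA that is recovered with it. Satellite cells sorted from hindlimb muscle of Tg:Pax7-nGFP mice, which carry a fluorescent reporter driven by Pax7, were cultured in medium with FGF, given no treatment, crosslinked with 1% glutaraldehyde for 10 min and hybridized at 37 °C for 4 h with 100 pmol of an odd or an even probe pool. Both pools thus share the strain, the cell type and the target RNA and differ in the probes, each has 1 library, no source used here names separate cultures or lysates for them, and the input library was not analysed here. No value below has a replicate error, so neighbouring genes in any ranking cannot be said to differ, and the number of sequenced reads behind the lists is unknown. A gene without a region is one where no region was listed at this unknown depth.

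Every odd region is 254 bp wide and every even region 248 bp, and each carries a deposited score, a whole number whose meaning the sources used here do not give. Odd scores ran from 4 to 81 with a median of 6, and even scores from 4 to 68 with a median of 5. Scores were compared within a list only. As a check of the cell label, 7 of 14 satellite cell and myogenic marker genes and 3 of 15 marker genes of other cell types held an odd region, and 2 of each held an even region. Both marker lists were above the share of all protein-coding genes, 6.46% in the odd and 0.996% in the even pool, with 50% and 20% in the odd pool and 14.3% and 13.3% in the even pool. A region list does not measure expression, so this gives no check on the purity of the cells.

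During initiation, the helicase eIF4A and the scaffold eIF4G act together in the eIF4F complex at the capped 5′ end of an mRNA, and the poly(A)-binding protein links the tail of the mRNA to eIF4G. During elongation, eEF1A delivers aminoacyl-tRNA to the ribosome, the eEF1B subunits recharge eEF1A with GTP, and eEF2 moves the ribosome along by a codon. Several of these mRNAs are among the abundant messages of growing cells, and such messages have left many processed pseudogenes, intronless copies of the spliced mRNA inserted elsewhere in the genome.

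The sequences below carry the main observations: a region shared by both pools on a coding exon, and regions on intronless copies. They are the mm9 reference, read 5′ to 3′ on the strand of the gene or copy. In the Eef1a1 region, chr9:78326736-78326989 on the minus strand at exon 7, capitals mark coding sequence and lower case marks intron of the transcript used, the one with the longest coding sequence.
Eef1a1 odd: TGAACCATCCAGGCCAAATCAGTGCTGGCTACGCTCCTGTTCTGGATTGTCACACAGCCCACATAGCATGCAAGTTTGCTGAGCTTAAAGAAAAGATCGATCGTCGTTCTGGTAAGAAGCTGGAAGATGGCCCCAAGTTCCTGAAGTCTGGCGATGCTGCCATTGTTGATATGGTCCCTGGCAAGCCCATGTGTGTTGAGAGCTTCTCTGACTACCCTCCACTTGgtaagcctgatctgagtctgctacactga
The region runs 29 bases past the end of the exon, into sequence that is intron in the transcript used and exon in another annotated transcript of the gene.

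In the next set, each switch between lower case and capitals is the place of an exon junction of the parent mRNA, and no intron lies between the exons. The regions in Eif4a-ps4 come from chr1:60761665-60761918 and chr1:60760967-60761220 in the odd pool and chr1:60760805-60761052 in the even pool, on the plus strand, and the exons are those of Eif4a1. The region at chr7:123968752-123969005, on the minus strand, lies in no annotated gene and matched exons 4 to 6 of the Eef1g mRNA.
Eif4a-ps4 odd, score 18: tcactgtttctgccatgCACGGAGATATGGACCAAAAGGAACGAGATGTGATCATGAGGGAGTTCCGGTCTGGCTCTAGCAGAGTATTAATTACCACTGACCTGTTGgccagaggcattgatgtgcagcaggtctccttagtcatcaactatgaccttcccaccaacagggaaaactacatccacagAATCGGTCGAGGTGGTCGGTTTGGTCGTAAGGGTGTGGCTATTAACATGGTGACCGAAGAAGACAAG
Eif4a-ps4 odd, score 14: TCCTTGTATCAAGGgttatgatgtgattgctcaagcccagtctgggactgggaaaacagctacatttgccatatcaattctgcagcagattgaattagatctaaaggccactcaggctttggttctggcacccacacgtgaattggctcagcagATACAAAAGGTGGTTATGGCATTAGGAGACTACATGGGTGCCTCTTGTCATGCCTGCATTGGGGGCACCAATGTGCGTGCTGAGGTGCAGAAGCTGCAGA
Eif4a-ps4 even, score 5: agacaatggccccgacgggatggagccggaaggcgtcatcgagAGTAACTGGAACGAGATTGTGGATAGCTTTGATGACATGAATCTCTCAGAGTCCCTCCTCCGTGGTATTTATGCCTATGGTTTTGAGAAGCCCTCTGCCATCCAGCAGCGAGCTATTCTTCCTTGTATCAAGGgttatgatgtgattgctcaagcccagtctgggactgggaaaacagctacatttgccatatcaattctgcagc
Copy of Eef1g odd, score 6: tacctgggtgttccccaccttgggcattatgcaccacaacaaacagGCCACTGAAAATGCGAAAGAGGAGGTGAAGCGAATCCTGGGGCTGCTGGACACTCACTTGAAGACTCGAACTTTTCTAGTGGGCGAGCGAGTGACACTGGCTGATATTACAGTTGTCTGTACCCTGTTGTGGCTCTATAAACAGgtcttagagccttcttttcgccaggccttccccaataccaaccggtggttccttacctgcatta
Eif4a1 and Eef1g are the genes without a region of their own, so for these mRNAs the listed sequence lay in copies and not in the genes.

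Of the 9 protein-coding genes, 7 held an odd region (77.8%), against 1445 of 22380 protein-coding genes in the annotation, or 6.46%. An even region lay in 2 of the 9 (22.2%), against 0.996% of protein-coding genes. These genes were chosen with the earlier results of these lists known, so the excess over the background describes them and is not a test. The background was much the same among genes of like length: of the 9082 protein-coding genes with a span between 3662 and 24572 bp, the range of the 9 genes, 6.39% held an odd region and 0.848% an even region. Repeated hits were rarer: 25 protein-coding genes (0.112%) held at least 4 odd regions, as Eef2 did, and 80 (0.357%) held at least 3, as Eef1a1 and Eif4g1 also did. Among 5201 annotated pseudogenes, 106 (2.04%) held an odd region and 14 (0.269%) an even region, and Eif4a-ps4 was one of both.

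**Figure D1:**
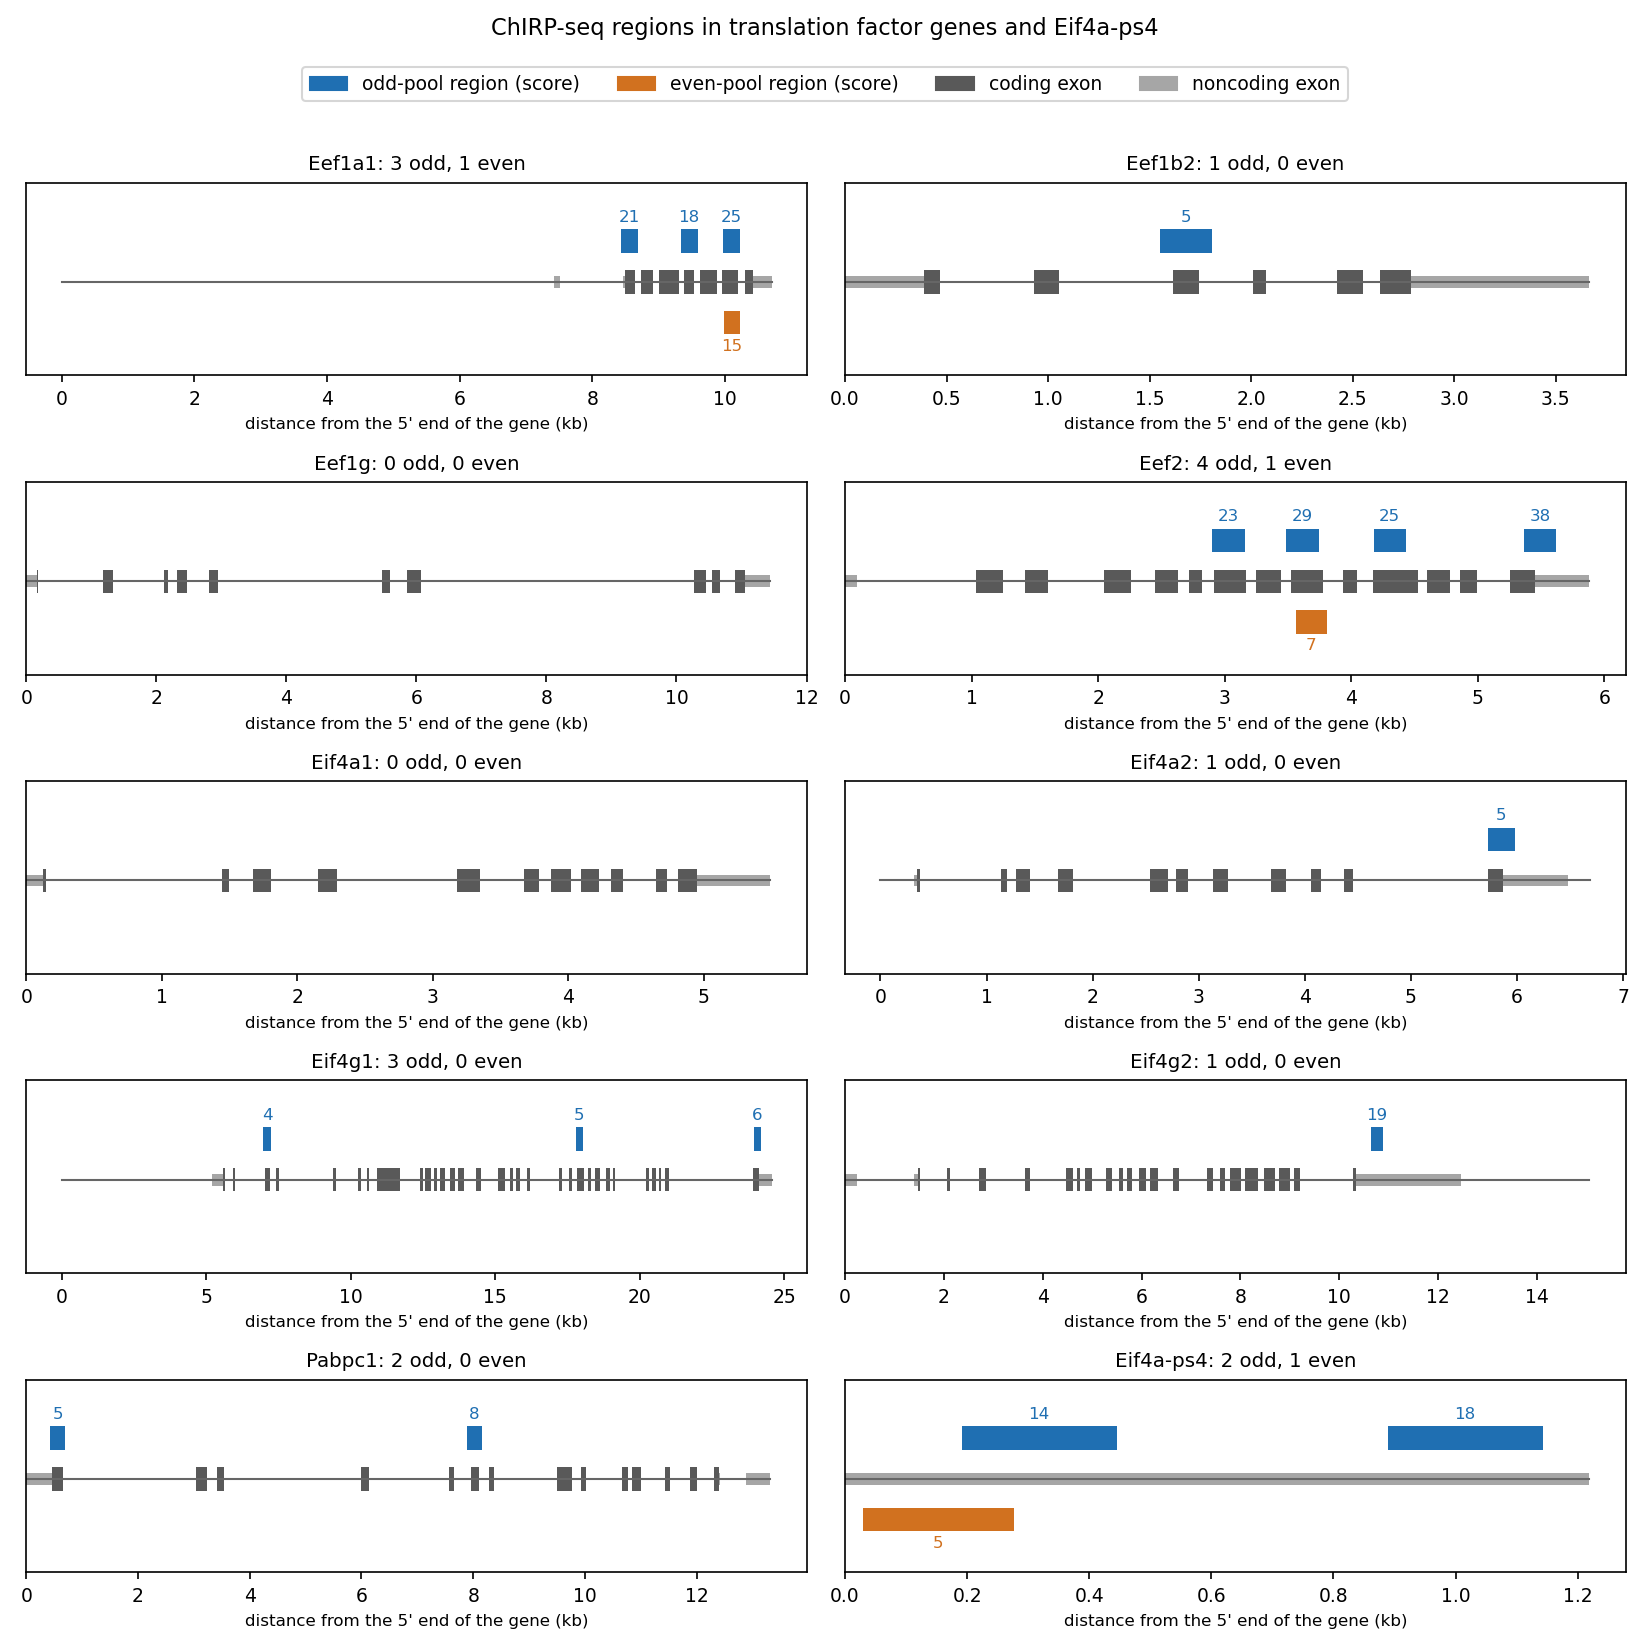
Regions of the odd pool (blue, above) and the even pool (orange, below) on each gene, drawn from its 5′ end in kb, with the deposited score beside each region; dark boxes are coding exons and pale boxes noncoding exons of the transcript used. Eef2 and Eef1a1 hold 4 and 3 odd regions on exons along the gene, and Eef1g and Eif4a1 hold none.

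Among the elongation factors, Eef2, which encodes the translocase of the ribosome, held the most regions. The gene has 14 exons on the plus strand of chromosome 10, between 80639376 and 80645252. Its odd regions had scores of 23 in exon 7 (80642280 to 80642533), 29 in exon 9, 25 in exon 11 (80643554 to 80643807) and 38 in exon 14, the last (80644743 to 80644996). The score of 38 ranked 24 of 2112, within the top 1.18% of the list, and the lowest of the set, 23, was within the top 3.55%. The region in exon 11 was wholly coding, and that in the last exon held 82 coding bases and 172 bases of 3′ UTR. The single even region had a score of 7 and shared 182 bp with the odd region at exon 9.

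Eef1a1, which encodes the GTP-binding factor that brings aminoacyl-tRNA to the ribosome, came next. Its transcript used here has 8 exons, and the gene spans 78326256 to 78336958 of chromosome 9 (minus strand). Its odd regions had scores of 21 in exon 2 (78328278 to 78328531), 18 in exon 5 (78327373 to 78327626) and 25 in exon 7, all within the top 5.73% of the list. The even region in exon 7 had a score of 15, rank 20 of 345, and shared 247 bp with the odd region there. Eef1a1 thus had the highest even score of these genes and the most complete overlap of both pools.

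The eEF1B subunits stood lower. Eef1b2, which encodes an exchange factor for eEF1A, held 1 odd region with a score of 5, below the list median, in exon 3 of 6 (chromosome 1, 63224952 to 63225205). Eef1g, which encodes the subunit that anchors this exchange complex, held none, and the nearest odd and even regions were both 40.1 kb from its span on chromosome 19.

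The initiation factors had fewer and mostly low-scoring regions. Eif4a1, the main eIF4A helicase gene of growing cells, held none, and the nearest odd region was 15.9 kb away on chromosome 11. Its paralogue Eif4a2 held 1 odd region with a score of 5 in the last of 11 exons (chromosome 16, 23113243 to 23113496), with 139 coding and 115 3′ UTR bases. The coding sequences of Eif4a1 and Eif4a2 are 78.3% identical.

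Eif4g1, which encodes the large scaffold of eIF4F, held 3 odd regions with scores of 4, 5 and 6, in exons 4, 23 and 32 of 32, so several regions along a gene did not go with high scores. Eif4g2, a relative of eIF4G that lacks the cap-binding protein's site and serves in cap-independent initiation, held 1 odd region with a score of 19, rank 101 of 2112. That region (chromosome 7, 118215652 to 118215905) lay wholly in the 3′ UTR and was the only one of the 15 odd regions in coding genes without a coding base. Pabpc1, the cytoplasmic poly(A)-binding protein, held odd regions with scores of 5 in exon 1 and 8 in exon 6 of 15. None of these initiation genes or Pabpc1 held an even region, and the nearest ones were from 162.5 kb (Pabpc1) to 2133 kb (Eif4g2) away.

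Eif4a-ps4, a single exon of 1218 bp on chromosome 1 from 60760776 to 60761993, held odd regions with scores of 18 (rank 108) and 14 (rank 175) and an even region with a score of 5. The odd region with a score of 14 and the even region shared 86 bp. Per kb of exon over all annotated transcripts, the number of odd regions was 1.64 in Eif4a-ps4, 1.29 in Eef2 and 1.20 in Eef1a1, and from 0.101 (Eif4g2) to 0.415 (Eif4g1) in the other genes with a region. Per kb of the transcript used alone, Eef1a1 came to 1.67 and the order of these 3 turned, while the others held from 0.193 (Eif4g2) to 0.710 (Pabpc1).

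**Figure D2:**
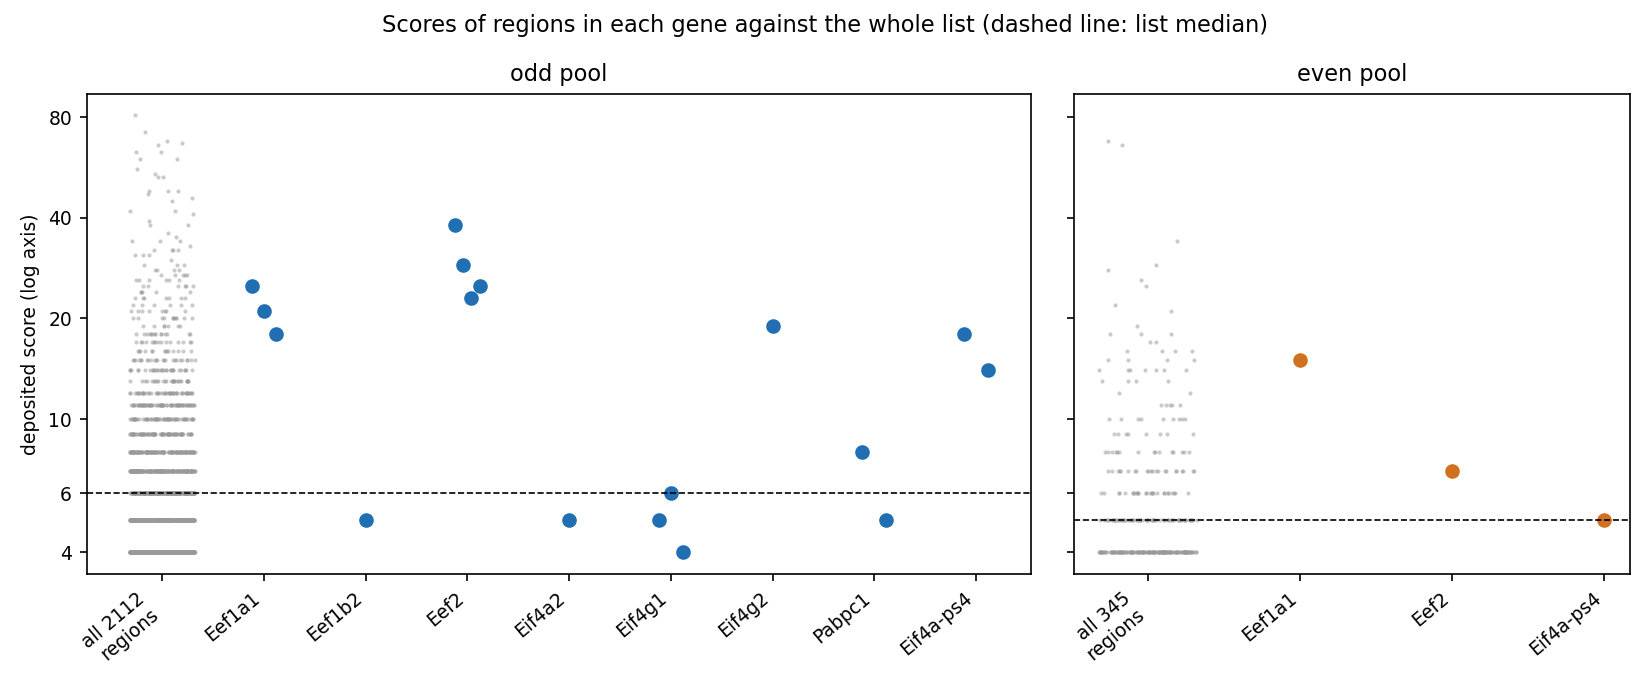
Deposited score on a log axis, for all regions of a list (grey points, spread sideways for view) and for the regions in each gene (coloured points), odd pool on the left and even pool on the right; the dashed line is the list median, 6 and 5. The regions in Eef2, Eef1a1, Eif4g2 and Eif4a-ps4 lie between 14 and 38 in the odd pool, and those in Eef1b2, Eif4a2 and Eif4g1 at or below 6.

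The odd scores of these genes spanned much of the list, with none between 8 and 14. The 17 scores had a median of 18 against 6 for the list, and 11 of 17 were above the list median, against 39.1% of all odd regions. A score over 10 was held by 10 of 17, in Eef1a1, Eef2, Eif4g2 and Eif4a-ps4, against 16.5% of the list. The remaining 7, in Eef1b2, Eif4a2, Eif4g1 and Pabpc1, were between 4 and 8, so scores over 10 came from 4 of the 8 genes. In the even pool, the scores of 15, 7 and 5 stood against a list median of 5.

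The overlap of the pools was described next. The paper states that the lysate was divided into aliquots after sonication and that odd and even probes were added separately. Both pools may thus come from the same sonicated chromatin, so their overlap is no agreement between independent cultures. All 3 even regions overlapped an odd region, where 42.6% of the even list did so, and all 3 lay in genes with odd scores of 14 or more. Of the odd regions, 3 of 17 (17.6%) overlapped an even one, against 6.96% of the odd list. The even regions did not lie on the highest odd score of Eef2 (38, last exon) or of Eif4a-ps4 (18), but at Eef1a1 both pools shared the region with the highest odd score, 25.

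All 15 odd regions in coding genes touched an annotated exon (95% Clopper-Pearson interval from 78.2% to 100%, counting error only), as did the 2 even regions there. The regions in Eif4a-ps4, which is all exon, could not do otherwise. Of all windows of the same width that overlap the 7 coding genes with an odd region, 66.7% touch an exon. Of the other odd regions in protein-coding genes, 89.0% of 1756 touched an exon, and 75.4% of 240 in the even pool. By the transcript used, the bases of the 15 odd regions were 64.8% coding, 16.5% 3′ UTR, 1.76% 5′ UTR and 17.0% intron, and 10 of the 15 held intron bases. Counting the exons of all annotated transcripts, 10.2% of the bases were intron, in 8 of the 15.

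The place along the mRNA was set beside that of the other regions. The last exon held 4 of the 15 odd regions in coding genes, or 26.7% (95% Clopper-Pearson interval from 7.79% to 55.1%), against 70.5% of 1516 other odd regions on exons of protein-coding genes. Last exons are shorter here, with a mean of 23.3% of the transcript length per odd region, against a mean of 47.4% for the genes of the other regions. Over the summed transcript length of the 7 genes, 27.2% was last exon. The share on the last exon was thus close to the share of length in these genes and above it in the rest of the list. The 4 regions on last exons, in Eef2, Eif4a2, Eif4g1 and Eif4g2, are also the 4 with 3′ UTR bases, and 14 of the 15 held coding bases. The difference from the rest of the list has no test, since regions of a gene share a source and the genes were chosen with results known.

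The genes differ widely in how many copies of their sequence the genome holds, which matters because the authors kept reads that map to 1 place. Each gene was cut into 31-mers, and those with 1 copy in mm9 were called unique. The read length is not given in the sources used here, so a 31-mer stands only as a measure of repetition. Of the coding 31-mers within exons, 0.224% were unique in Eif4a1 and 4.28% in Eef1g, the 2 coding genes without a region. Eef1a1 followed with 11.1%, a median of 5 copies and up to 13, and it nevertheless held 3 odd regions and 1 even region. The share was 51.3% in Pabpc1, 54.5% in Eif4a2, 69.9% in Eef1b2, 73.5% in Eef2, 99.3% in Eif4g1 and 100% in Eif4g2. The genes without a region are thus the 2 with the lowest share of unique coding 31-mers, but this order held for coding 31-mers only. Over all exon 31-mers, Eef1a1 was lowest with 12.9%, against 16.1% in Eif4a1 and 30.95% in Eef1g. Over the whole span, Eef1g had 87.4%, above the 86.6% of Eef2 and the 76.6% of Eef1a1, which hold regions. The part of repeated sequence in the result was not tested.

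**Figure D3:**
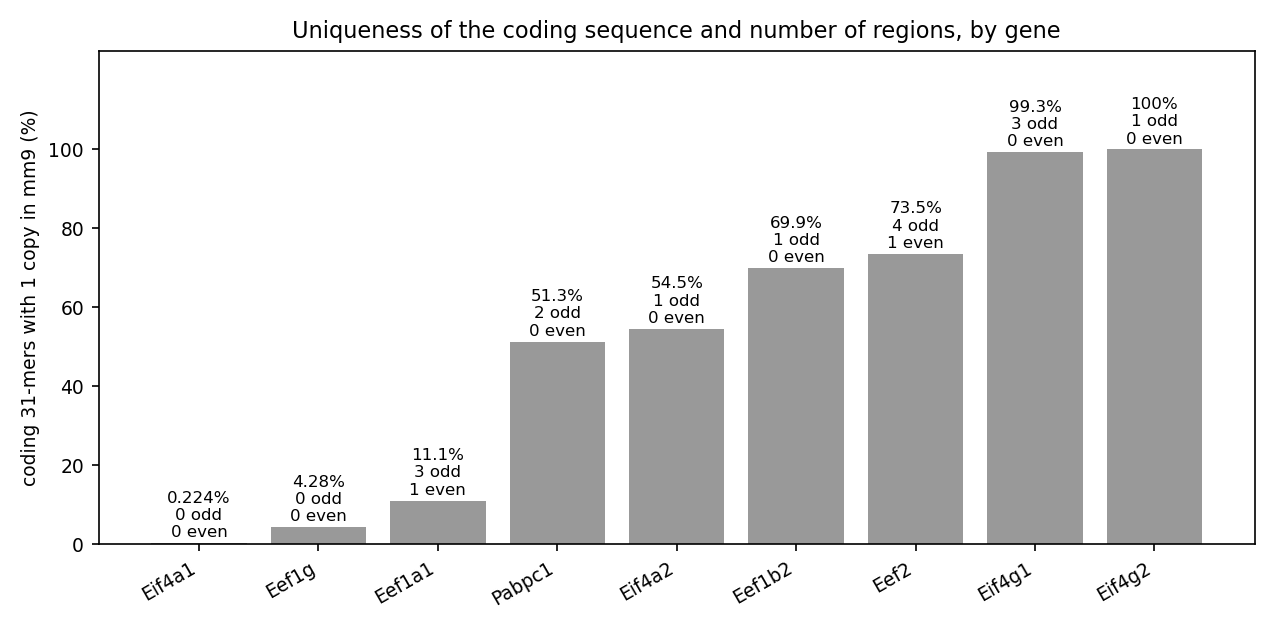
Share of 31-mers within coding exons that occur once in mm9, in percent, for the 9 protein-coding genes in increasing order, with the share and the number of odd and even regions above each bar. Eif4a1 (0.224%) and Eef1g (4.28%) have the lowest shares and no region, and Eef1a1 (11.1%) has 3 odd regions and 1 even region.

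In the Eef1a1 regions, a larger share of 31-mers was unique over intron edges of the transcript used than inside its exons. Some of these edges are exon in other annotated transcripts. In the exon 2 region, 1 of 148 31-mers wholly inside the exon was unique, against 74 of 76 that touched the intron. In the exon 5 region these were 31 of 121 and 102 of 103, and in the exon 7 odd region 62 of 195 and 27 of 29. By number, most unique 31-mers of the exon 2 and 5 regions thus touched the intron. In the exon 7 odd region most lay inside the exon. The regions of exons 2 and 5 hold the whole exon, 178 and 151 bp. Their reach of 76 and 103 bp into introns is thus given by their width of 254 bp. The odd region of exon 7 holds 225 exon bases and reached 29 bp. A link between reach and uniqueness was not tested. In Eef2, by contrast, 95 of the 224 31-mers of the wholly exonic region in exon 11 were unique, and all 224 of that in exon 7. Of the 17 odd regions, 6 had a median 31-mer with at least 2 copies, against 16.5% of the odd list, and 2 of the 3 even regions against 19.4% of the even list.

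Eif4a-ps4 is a nearly perfect copy of the coding sequence of Eif4a1. Its 1218 bases aligned to bases 123 to 1340 of the Eif4a1 transcript with 1 substitution and no gap, an identity of 99.92%, and cross the places of all 10 exon junctions. The 3 regions in it were 100% identical to the Eif4a1 mRNA, and from 76.2% to 80.1% identical to that of Eif4a2. The substitution, at base 534 of the pseudogene, is outside all 3 regions. Sequence alone therefore does not tell the pseudogene from the spliced Eif4a1 mRNA in these regions, while it does tell the pseudogene from the Eif4a1 gene at the junctions.

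Most unique 31-mers of the pseudogene crossed the place of an exon junction, but not every junction had one. Over the whole pseudogene, 126 of 293 31-mers that cross the place of an Eif4a1 exon junction were unique in mm9 (43.0%), against 20 of 895 that do not (2.24%). Those 20 all contain the substitution at base 534, as do the unique 31-mers across the junction after base 514. Across the junctions after bases 23 and 996, no 31-mer was unique. The odd region with a score of 18 crosses 3 junctions, from exon 8 to exon 11. It held 41 unique 31-mers, all across a junction but none across that after base 996, and 0 among the 147 others. The odd region with a score of 14 crosses 2 junctions. It held 12 unique 31-mers, all across the junction after base 345, and 0 among 180 others. The even region crosses 2 junctions, with 34 unique 31-mers across them and 0 among 158 others. These counts of 0 were fixed by the identity of the 3 regions to the Eif4a1 mRNA. A 31-mer in them that crosses no junction also occurs within an exon of the Eif4a1 gene. That the regions cross junctions is given by their width, since no stretch of the pseudogene without a junction is longer than 169 bp. Whether the signal came from the DNA of the pseudogene or from spliced Eif4a1 RNA carried into the library cannot be told apart in a list of regions.

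**Figure D4:**
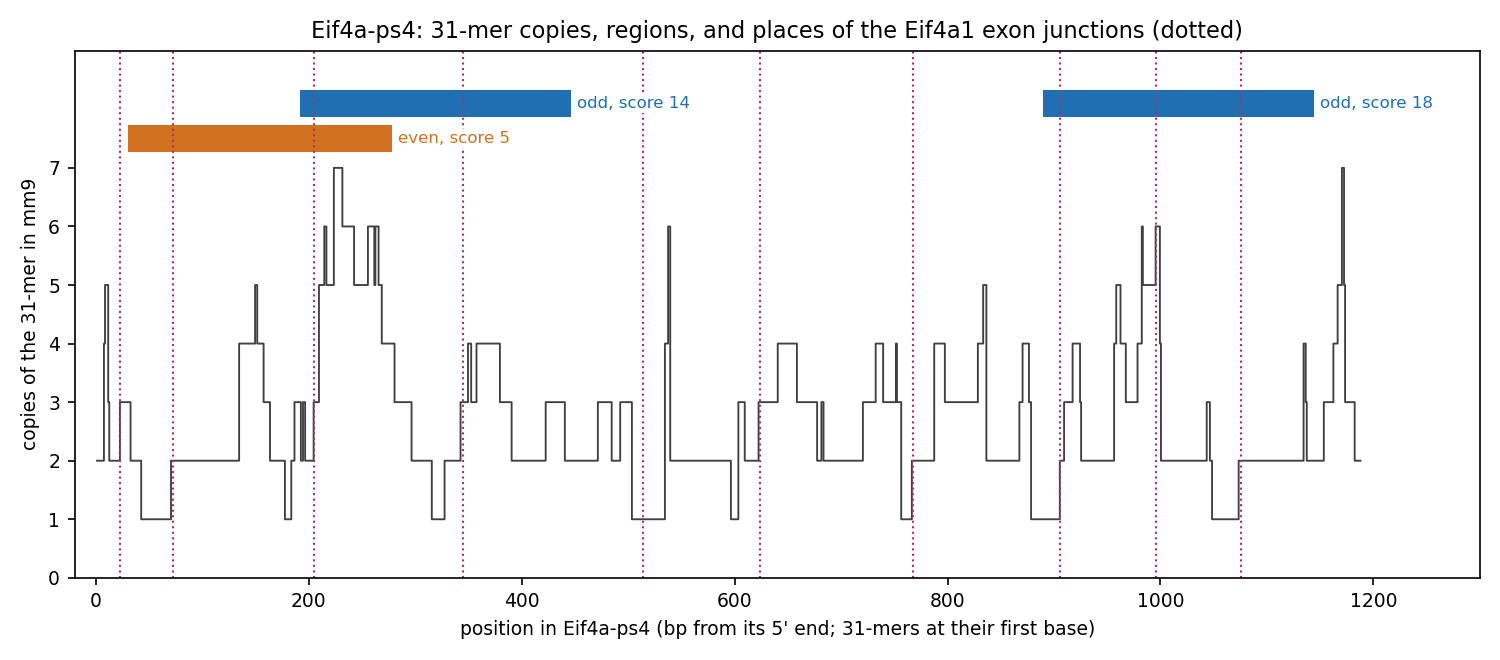
Copies in mm9 of each 31-mer along Eif4a-ps4 (line, placed at the first base of the 31-mer), with the places of the 10 Eif4a1 exon junctions (dotted) and the odd (blue) and even (orange) regions with their scores above. The line is at 1 copy mainly just left of junctions, and the regions, with scores of 18, 14 and 5, each cover 2 or 3 of them.

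Other regions outside the 10 genes matched a spliced transcript of one of them by megablast, at 90% identity or more. There were 10 in the odd list (0.473%) and 3 in the even list (0.870%), and all 13 matches crossed at least 1 exon junction of the parent mRNA. Of all windows of the odd width along the transcripts used of the genes matched, from 41.3% (Eef1b2) to 86.7% (Eef1a1) cross a junction. Of the odd ones, 5 lay on annotated pseudogenes, 3 in no annotated gene and 2 in introns of Nup210l and Laptm4b. The 3 even ones each overlapped one of the odd ones.

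The highest of these was in Gm13456 on chromosome 2, a pseudogene 99.2% identical to Eef1a1 over the region, with an odd score of 32 (40411443 to 40411696) and an even score of 11. Gm13050 on chromosome 4, a copy of Eef2 with 97.2% identity, had an odd score of 19 (142832073 to 142832326) and an even score of 7. Gm16580, a copy of Pabpc1 with 98.8% identity that lies within Luc7l on chromosome 17, had an odd score of 11 and an even score of 6. The copies scored above their genes in some cases and below in others. The Eef1a1 copy reached 32 against at most 25 in Eef1a1, and the Pabpc1 copies 11 against 8. A second odd region on the Eef1a1 copy (40412390 to 40412643) scored 9, below the lowest score in Eef1a1, 18. The Eef2 copies scored 19 and 6 against 23 to 38 in Eef2, the Eif4a2 copy 4 against 5, and the Eef1b2 copy had the same score as Eef1b2, 5.

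Eef1g was matched by 2 odd regions on chromosome 7, with scores of 6 (100% identity, printed above) and 4 (99.6%), each across 2 exon junctions. A further Pabpc1 match with a score of 11 lay in no annotated gene on chromosome 3. Eif4a1 had no match other than Eif4a-ps4, and Eif4g1 and Eif4g2, the genes with nearly all coding 31-mers unique, had none. Counting Eif4a-ps4 for Eif4a1, every coding gene of the set other than Eif4g1 and Eif4g2 had a listed region on a copy of its spliced mRNA elsewhere in the genome. Transcripts of other genes were not matched. No share over all protein-coding genes can thus be set beside this, and it is not shown to be particular to the set.

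As a set, the remaining translation factor genes gave lower scores. The 10 genes were chosen with earlier results of these lists known, so this difference is a description and not a test. Of 71 genes carrying 70 other factor symbols, 16 held an odd region (22.5%, 95% Clopper-Pearson interval from 13.5% to 34.0%, against the 6.46% background) and 3 an even region (4.23%, against 0.996%). Their 20 odd regions had a median score of 5 and a highest score of 16, all touched an exon, and 8 were on the last exon. Eif5a, the hypusinated factor that relieves stalled ribosomes, had the highest score, 16, followed by Tpt1, a small translationally controlled protein, with 12, and Eif4h, a cofactor of eIF4A, with 10. Eif4b, another eIF4A cofactor, held 3 odd regions with scores of 9, 6 and 5. Abce1, the ribosome recycling factor, held odd regions with scores of 7 and 5.

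Subunits of eIF3, the scaffold of the preinitiation complex, were present at the low end, with 6 for Eif3b and Eif3g and 5 for Eif3a and Eif3e. The exchange subunit gene Eef1d had 6, the start-site selection factor gene Eif1 had 2 regions with 5 each, and the release factor genes Etf1 and Gspt1 had 5. The even regions, in Eif3c, Eif4h and Gspt1, all had the lowest score, 4, and that in Gspt1 overlapped the odd one. No gene of this wider list reached the odd scores of Eef2 or Eef1a1. The highest odd scores of Eif5a, Tpt1, Eif4h and Eif4b were nevertheless above every score of Eef1b2, Eif4a2, Eif4g1 and Pabpc1.

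Other housekeeping genes gave a mixed picture. Of 148 ribosomal protein genes, 15 held an odd region (10.1%, 95% Clopper-Pearson interval from 5.78% to 16.2%, which holds the 6.46% of all protein-coding genes) and 1 an even region (0.676%, below the 0.996% of all). Of 21 glycolytic genes, 7 held an odd region (33.3%) and 2 an even region (9.52%), both above those shares. The share of the 9 coding genes in the odd pool, 77.8%, lay above both, with the reservation that the 9 were chosen with results known. By odd score, the glycolytic regions had a median of 11 and a highest of 33. These were 18 and 38 in the 9 coding genes, and 6 and 13 in the ribosomal protein genes. High odd scores were thus not particular to the translation factor genes.

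The regions were also compared with the probe sequences. The 6 probes are 20 nt long, and which pool each belongs to is not given in the sources used here. The longest exact run shared with any probe on either strand was from 6 to 10 nt in the 17 odd regions, with a median of 7, against a median of 7 and up to 13 nt over the odd list. In the 3 even regions it was from 7 to 9 nt, with a median of 8, equal to that of the even list. The median GC content of the odd regions was 50.4%, against 49.6% for the list.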

How the data were processed

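PAM ChIRP-seq libraries of ASCs were analysed, 1 for the odd and 1 for the even probes, and the input was not analysed here. The authors aligned reads uniquely to mm9 (Bowtie2) and called peaks (MACS2). The deposited files list regions of fixed width, each with a score. Each list is longer than the set of PAM-bound regions that the paper reports. How the lists relate to that set was not examined here, so a listed region need not be in it. Versions, thresholds, the read length and the meaning of the score are not given in the sources used here, and the deposited lists hold no read counts, so depth is unknown.

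Starts were taken as 0-based and are printed 1-based. Regions were assigned to GENCODE M1 gene spans by an overlap of at least 1 bp, and exon positions use the transcript with the longest coding sequence. Copies of 31-mers were counted on both strands of mm9 (the counter was tested on simulated data), and regions were matched to transcripts of the 10 genes by megablast (90% identity, 125 bp). Intervals are 95% Clopper-Pearson. With 1 library per pool no test was made. Some region sequences are not reported here. All 10 genes are named, with the other factor genes of the 12 highest scores and ties. The split of 31-mers at exon junctions and intron edges, and the named copies, were chosen after values were seen, and the members and lists were chosen with earlier results of these data known. Python 3.11.15, NumPy 2.4.6, pandas 2.3.3, SciPy 1.17.1, numba 0.67.0, Biopython 1.88, matplotlib 3.10.9 and BLAST 2.17.0 were used.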

Additional observations from a re-analysis of the deposited data

How the results depend on the processing

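Of 48 alternative values for 16 results, 38 stayed within 1.5 times the reported value or within its interval, and 10 moved. With scores above the list median only, 5 genes of the 10 held an odd region and 11 odd regions were left, and 5 other factor genes held an odd region and 0 an even one. Extending regions by 1000 bp raised the loci shared in the 10 genes from 3 to 9. With exons of all transcripts, chosen after seeing the data, 10.2% of odd bases were intron in place of 17.0%. With 51-mers, 2 odd regions in place of 6 had a repeated median. In the even pool, 0% of exonic regions were on the last exon, 3 regions elsewhere matched one of the transcripts and 2 had a repeated median 31-mer, each over far fewer regions. A score limit leaves fewer regions by construction, and otherwise the cause was not tested. No paired analysis was possible because no result comes from a test, with a single library for odd and for even probes. The unknown depth limits what the absence of a region means.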
